A study of Brassica rapa with 23 samples.

Results

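Described here are 25 genes of Chinese cabbage leaf whose transcript level on the log2(FPKM + 1) scale stood well above water after 180 min of chitin and closer to water after 180 min of flg22. They were chosen by their measured values. For each gene the mean of log2(FPKM + 1) was taken per condition, where FPKM is the number of fragments relative to the length of the transcript and to the size of the library. A member differed from water of the same time by less than 1 on this log2 scale with either elicitor at 30 min, exceeded water by at least 1.5 with chitin at 180 min, exceeded it by less than 0.75 with flg22 at 180 min, was at least 1 higher with chitin than with flg22, and moved by less than 1.5 in water between 30 and 180 min. Of 41020 annotated genes 27 met these conditions, 2 of them were set aside by name, and 25 remained. The same conditions with chitin and flg22 exchanged were met by 29 genes.

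The study followed the early transcriptional response of B. rapa ssp. pekinensis to 2 microbe-associated molecular patterns (MAMPs) by RNA-Seq of 23 libraries. All plants were wild type, of the commercial cultivar Norang, and were grown on soil for 17 days with 10 h of light and 14 h of dark. Discs cut from the 1st true leaf were incubated in water (5 libraries at 30 min and 6 at 180 min), in chitin at 100 µg per ml (3 libraries at each time) or in flg22 at 100 nM (3 libraries at each time). A replicate pools leaf discs, so the spread between libraries includes differences between sets of discs, and excised tissue of all 6 conditions was wounded. Libraries are named here by replicate number and library number, as in 1-s7 for library 7 of replicate 1. Between 4.09 and 5.64 gigabases aligned behind each library (median 4.72), and 30.1% to 33.2% of genes were listed at 0 per library. Leaf identity was not checked against marker genes, because the identifiers could not be paired with names here.

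Chitin is a polymer of fungal cell walls, and flg22 is a peptide of bacterial flagellin. In Arabidopsis, chitin is bound by receptor kinases with LysM domains, LYK5 and CERK1, whereas flg22 is bound by the leucine-rich repeat receptor kinase FLS2. Both receptors start pattern-triggered immunity, in which calcium influx, reactive oxygen species and MAP kinase cascades precede a broad change of transcription within the first hours. None of the 25 members is annotated with a name, a product or a sequence in the sources used here, so each is given by its identifier and its position in the B. rapa chromosome v1.5 build, and no role can be stated for any of them.

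At 180 min the 25 members lay 1.51 to 2.75 above water with chitin on the log2(FPKM + 1) scale, with a median of 1.79, against a median of -0.12 over all 24384 tested genes (those reaching 1 FPKM in 3 or more libraries, a filter that all 25 members passed). With flg22 they lay between -0.47 and 0.73 relative to water, with a median of 0.36 against 0.01 over tested genes; 21 were above water and 4 below. Chitin exceeded flg22 by 1.02 to 2.21 (median 1.56, tested genes -0.10). All of these values were used to choose the members and are given as description. In leaf tissue analysed in bulk, a smaller number of cells of a type and less RNA per cell cannot be told apart.

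**Figure D1:**
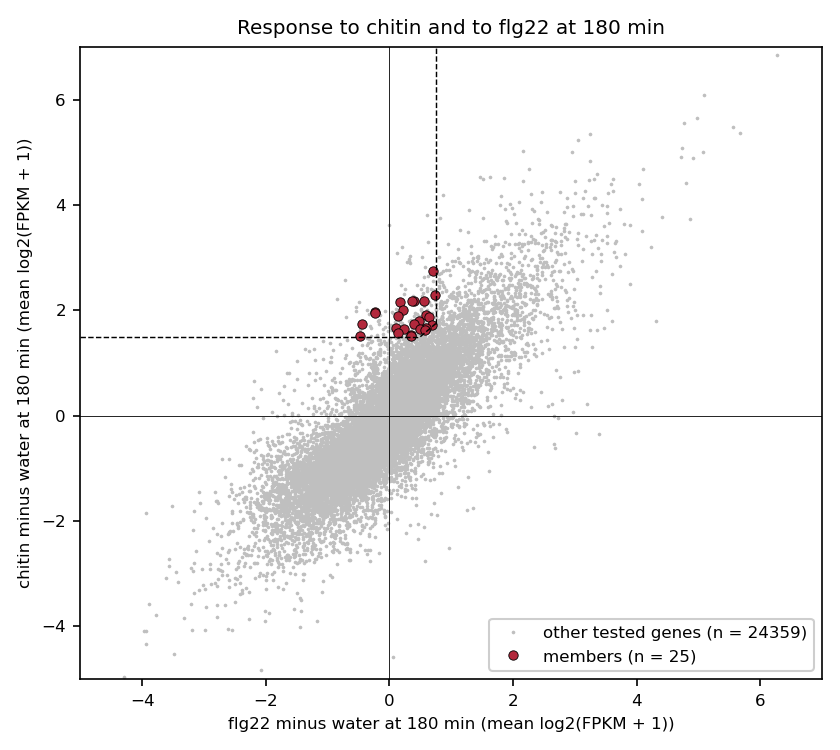
Each point is a gene, placed by its mean difference from water at 180 min with flg22 (horizontal axis) and with chitin (vertical axis), both in units of log2(FPKM + 1). The 25 members (red) lie in the area that the conditions at 180 min mark out (dashed lines), with chitin differences from 1.51 to 2.75 and flg22 differences from -0.47 to 0.73. The 24359 other tested genes are grey. Some of them lie in the same area because they failed another condition or were set aside by name.

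A gene was called where limma gave a 2-fold or larger difference with an unadjusted p below 0.05. All 25 members were called higher with chitin than with water at 180 min, where 9.15% of tested genes were. None was called higher with flg22 than with water, a call that the limit of 0.75 prevents (6.68% of tested genes), and 24 were called higher with chitin than with flg22 (2.99% of tested genes), the exception being Bra038048. The 3 chitin libraries all exceeded the 6 water libraries in 24 members, again without Bra038048 (20.1% of tested genes). They all exceeded the 3 flg22 libraries in 25 members (14.4% of tested genes). The 3 flg22 libraries all exceeded the 6 water libraries in 4 members, Bra020071, Bra023636, Bra040690 and Bra029761 (20.8% of tested genes). Nothing is read from these counts, since the same contrasts selected the members.

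Among the 20 members with no library at 0, the mean FPKM with chitin at 180 min was 2.93 times (Bra021672) to 9.21 times (Bra011181) that of water, with a median of 3.60. Relative to flg22 it was 2.09 times (Bra023636) to 7.61 times (Bra011181), with a median of 3.01. The flg22 mean was 0.670 times (Bra012482) to 1.77 times (Bra037094) that of water, with a median of 1.25. Over all 25 members, the 5 with libraries listed at 0 included, the chitin mean was 2.93 to 87.6 times and the flg22 mean 0.554 (Bra030513) to 17.7 times (Bra020071) that of water. The high ends are those of Bra020071, listed at 0 in 5 of 6 water libraries, followed by Bra040690 with 49.2 times for chitin and 12.4 times for flg22. In these genes flg22 was therefore close to water on the log2(FPKM + 1) scale, by 0.63 and 0.59, but not as a ratio.

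Bra037094 (A05, 9393292 to 9394239, minus strand) had the largest difference between chitin and water on the log2(FPKM + 1) scale. At 180 min it was at 41.7, 32.7 and 23.0 FPKM in chitin replicates 1, 2 and 3, at 8.89, 7.73 and 4.76 in flg22, and between 1.92 and 5.58 in water (median 3.95). The chitin libraries stood clear of all others, and the lowest flg22 library lay within the range of water. The difference from water was 2.75 with chitin (standard error 0.29) and 0.71 with flg22 (standard error 0.29), and chitin exceeded flg22 by 2.04 (standard error 0.33). The gene did not meet all conditions with TPM (values scaled to a fixed total) or with 0.1 instead of 1 added to FPKM. At 30 min all 3 conditions overlapped, with 3.58, 2.06 and 2.66 FPKM in chitin, 5.11, 1.67 and 4.05 in flg22, and 3.53, 3.79, 2.62, 6.79 and 4.38 in water. Between 30 and 180 min its mean was 11.7 times higher in chitin, 1.97 times higher in flg22 and 0.951 times its earlier value in water, and this ratio in chitin exceeded that of the 19 other members never at 0.

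Bra025169 (A06, 21904028 to 21904639, plus strand) and Bra032601 (A09, 38554377 to 38554820, plus strand) had differences from water of 2.29 (standard error 0.46) and 2.19 (standard error 0.47) with chitin. Bra025169 was at 93.0, 82.1 and 94.8 FPKM in chitin at 180 min, at 26.6, 36.8 and 26.8 in flg22, and between 12.1 and 27.4 in water (median 17.2). Its flg22 libraries lay at the top of the water range or above it, and its difference with flg22, 0.73, was the closest to the limit of 0.75. Bra032601 was at 27.3, 29.6 and 31.3 FPKM in chitin, at 6.58, 11.0 and 9.37 in flg22, and between 2.91 and 8.19 in water (median 6.10). In both genes the chitin replicates agreed closely, with coefficients of variation of 7.62% and 6.71%, while the water libraries at 30 min were scattered: library 3-s17 was at 87.9 FPKM for Bra025169 and at 29.5 for Bra032601, and the other 4 lay at 9.69 to 25.6 and at 2.68 to 9.29.

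Bra013744 (A01, 7543877 to 7546222, plus strand) had the highest level of the set with chitin, 110.0, 99.0 and 91.8 FPKM in replicates 1 to 3 at 180 min. It was at 38.6, 47.5 and 34.0 FPKM in flg22 and between 10.7 and 40.8 in water (median 28.7), so that flg22 and water overlapped and chitin did not overlap with either. The difference from water was 1.91 with chitin and 0.59 with flg22 (standard error 0.39 each). At 30 min its libraries were spread from 15.0 to 54.5 FPKM in chitin, from 11.9 to 31.9 in flg22 and from 15.0 to 37.9 in water, all within reach of each other.

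Bra023636 (A02, 3272221 to 3274222, minus strand) and Bra029761 (A05, 23096993 to 23098700, minus strand) were the members at high level in which flg22 also stood above every water library. Bra023636 was at 75.8, 76.7 and 47.6 FPKM in chitin at 180 min, at 32.8, 36.0 and 26.7 in flg22, and between 11.2 and 25.2 in water (median 21.6). Bra029761 was at 38.6, 51.3 and 41.1 FPKM in chitin, at 20.0, 23.0 and 18.6 in flg22, and between 10.6 and 18.3 in water (median 13.0). In each gene the 3 conditions followed each other without overlap, water lowest and chitin highest. Their differences between chitin and flg22 were the smallest of the set together with that of Bra040690, at 1.02 (standard error 0.28) for Bra023636 and 1.05 (standard error 0.32) for Bra029761.

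**Figure D2:**
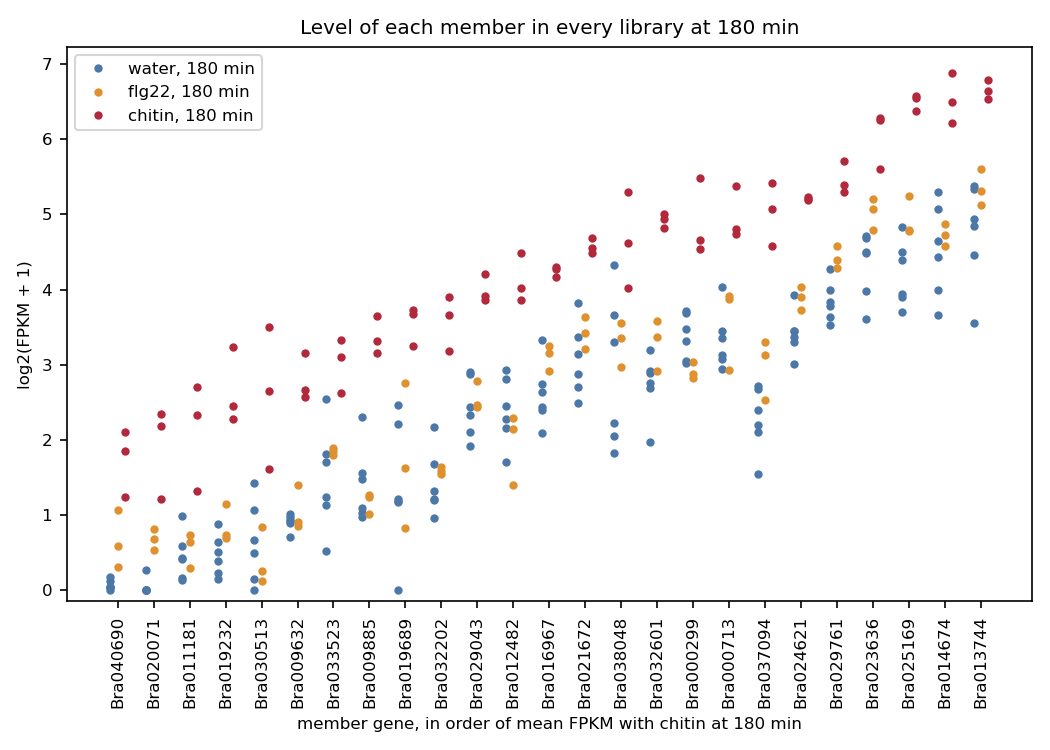
Level of each member in every library at 180 min as log2(FPKM + 1), for 6 water (blue), 3 flg22 (orange) and 3 chitin libraries (red), with genes ordered by mean FPKM with chitin from 2.42 in Bra040690 to 100.3 in Bra013744. The red points lie above the orange points in all 25 genes, and Bra038048 is the gene whose red and blue points overlap.

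In 4 members the mean with flg22 at 180 min lay below that of water. Bra009885 (A06, 18506327 to 18507206, minus strand) was at 9.00, 7.94 and 11.5 FPKM in chitin, at 1.01, 1.41 and 1.35 in flg22, and between 0.968 and 3.94 in water (median 1.47). Its flg22 libraries fell inside the water range, and its difference between chitin and flg22, 2.21 (standard error 0.30), was the largest of the set. At 30 min this gene had been at 3.15, 3.38 and 3.40 FPKM in flg22 and at 4.80, 2.23 and 2.92 in chitin, against 0.907 to 3.05 in water. Both elicitors were thus above most water libraries early (differences of 0.79 with flg22 and 0.75 with chitin), and from 30 to 180 min the mean became 0.380 times as high in flg22 and 2.86 times as high in chitin.

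Bra012482 (A07, 9514569 to 9515919, minus strand) was at 13.6, 15.2 and 21.5 FPKM in chitin at 180 min, at 3.90, 3.43 and 1.64 in flg22, and between 2.25 and 6.63 in water (median 4.18). The flg22 libraries included the lowest of all 12 libraries at this time, and the difference from water was -0.44 with flg22 and 1.73 with chitin (standard error 0.26 each). Bra030513 (A08, 20738311 to 20738676, plus strand) was at 2.07, 10.4 and 5.27 FPKM in chitin, at 0.196, 0.0924 and 0.786 in flg22, and at 0.585, 0.112, 0.413, 1.68, 0 and 1.09 in the water libraries. Its chitin libraries were all above the others but differed widely among themselves, with a coefficient of variation of 70.9% that was the highest of the set.

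Bra000299 (A03, 10434161 to 10434379, minus strand) has the shortest locus of the set, 219 bp, and the lowest difference with flg22, -0.47 (standard error 0.24). It was at 24.3, 43.9 and 22.2 FPKM in chitin at 180 min, at 7.24, 6.34 and 6.06 in flg22, and between 7.15 and 12.1 in water (median 9.59). Chitin was clear of water, while 2 flg22 libraries were below every water library and the third was below all but 1. At 30 min the same gene was at 21.1, 40.8 and 31.3 FPKM in chitin, 28.1, 21.8 and 18.9 in flg22 and 11.3 to 21.8 in water.

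Bra000299 is also 1 of 4 members in which the level with chitin did not separate between the times. In 21 members all chitin libraries at 180 min exceeded all chitin libraries at 30 min (43.8% of tested genes). The exceptions were Bra032202, Bra014674, Bra011181 and Bra000299, which also had the 4 lowest changes in water, from -0.74 to -1.37 on the log2 scale. In these genes the later levels of water and of flg22 were lower than the earlier ones, whereas the mean with chitin at 180 min was between 0.970 and 1.43 times that at 30 min. For Bra000299 the mean went from 17.3 FPKM at 30 min to 9.61 at 180 min in water, from 22.9 to 6.55 in flg22 and from 31.1 to 30.1 in chitin. On the log2 scale, the change with chitin equals its difference from water at 180 min, minus that at 30 min, plus the water change. The conditions limit each of these terms, so the match with low changes in water follows in part from the choice of members.

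Bra014674 (A04, 2165583 to 2166047, plus strand) had the largest change in water on the log2 scale. Its mean went from 68.4 to 23.7 FPKM in water, from 88.9 to 25.6 in flg22 and from 92.7 to 93.3 in chitin. At 180 min it was at 73.3, 89.4 and 117 FPKM in chitin, at 25.5, 23.0 and 28.4 in flg22, and between 11.7 and 38.4 in water (median 22.3), without overlap between chitin and the rest. At 30 min the spread was wide in every condition, with 39.1, 83.4 and 156 FPKM in chitin, 65.5, 51.8 and 149 in flg22, and 29.7 to 137 in water, so that the conditions overlapped fully. The change in water was -1.37, beside the limit of 1.5.

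Bra032202 (A05, 13062270 to 13064818, plus strand) was at 8.07, 11.7 and 14.0 FPKM in chitin at 180 min, at 1.91, 2.13 and 2.01 in flg22, and between 0.940 and 3.49 in water (median 1.41). It was already at 6.03, 6.48 and 11.0 FPKM in chitin at 30 min, above all flg22 libraries (5.62, 5.19 and 4.31) and all water libraries (2.84 to 4.62), and its difference from water at that time, 0.92, was the closest of the set to the limit of 1. Bra011181 (A01, 3453217 to 3454260, plus strand; named after its values were seen) was at 1.499, 5.52 and 4.02 FPKM in chitin at 180 min, at 0.667, 0.222 and 0.560 in flg22, and between 0.0995 and 0.990 in water (median 0.343). Its mean at 180 min was 0.286 times that at 30 min in water and 0.220 times in flg22, but 1.38 times in chitin.

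**Figure D3:**
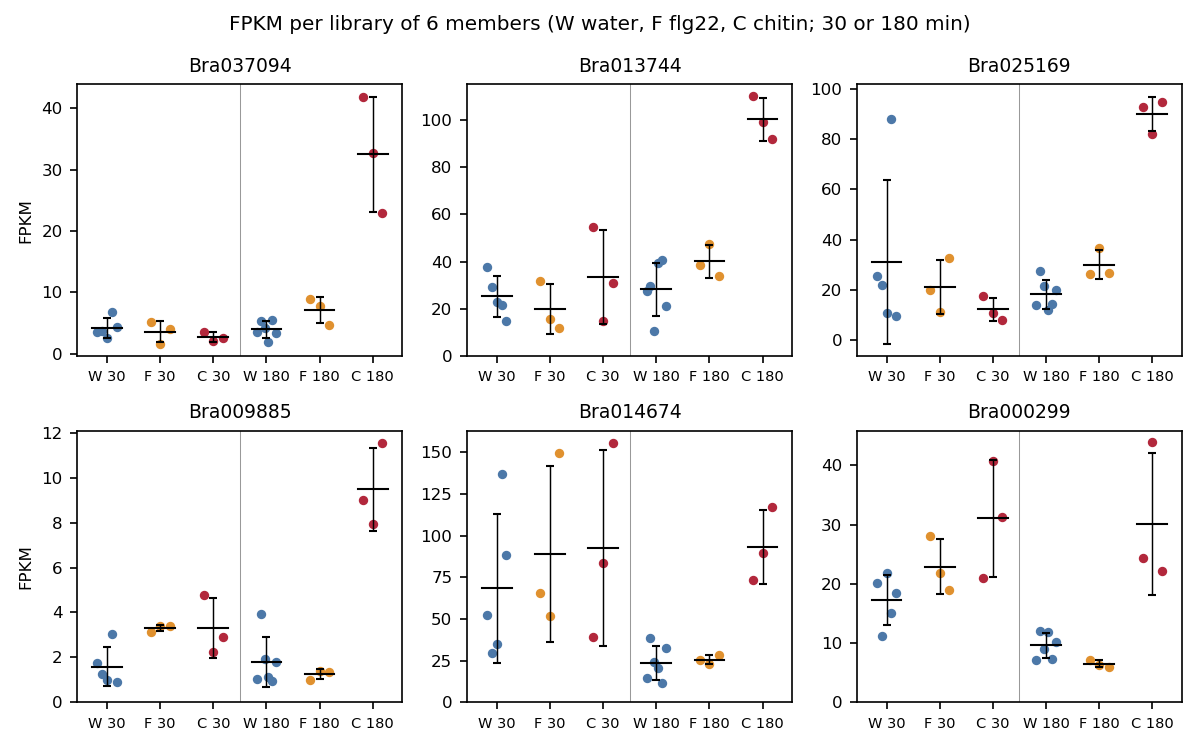
FPKM per library of 6 members in water (W, blue, 5 libraries at 30 min and 6 at 180 min), flg22 (F, orange, 3 each) and chitin (C, red, 3 each), with the mean and SD of each condition as bars. Bra037094, Bra013744, Bra025169 and Bra009885 are higher with chitin at 180 than at 30 min, whereas Bra014674 (means of 92.7 and 93.3 FPKM) and Bra000299 (31.1 and 30.1) keep their level with chitin.

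In 6 members the mean was under 1 FPKM in water at 180 min, which is 24% of the set, against 7.38% of tested genes. Bra020071 (A02, 3891466 to 3893294, minus strand) and Bra040690 (A04, 3986509 to 3988032, plus strand), both named after their values were seen, had the lowest levels in water. Bra020071 was listed at 0 in 5 of 6 water libraries at 180 min and at 0.205 FPKM in 1-s7, at 0.608, 0.752 and 0.451 in flg22, and at 4.10, 3.57 and 1.32 in chitin. Bra040690 was at 0.0271, 0.0269, 0.0835, 0, 0.130 and 0.0284 FPKM in the water libraries, at 0.506, 0.236 and 1.09 in flg22, and at 3.31, 2.60 and 1.36 in chitin. The 3 conditions did not overlap in either gene, with flg22 between water and chitin. At 30 min the flg22 libraries of Bra020071 (0.276 to 0.564 FPKM) were already above all water libraries (0 to 0.275), and its chitin libraries (0.0994 to 0.675) overlapped with water. For Bra040690 every flg22 library (0.374 to 1.14) and every chitin library (0.201 to 0.955) was above every water library (0 to 0.0842) at 30 min. On the log2(FPKM + 1) scale, which compresses differences at such levels, the early differences stayed under the limit of 1 (0.46 and 0.72 with flg22, 0.30 and 0.49 with chitin).

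Bra019232 (A03, 25620696 to 25621079, plus strand) was at 3.87, 8.41 and 4.45 FPKM in chitin at 180 min, at 0.667, 0.616 and 1.22 in flg22, and at 0.428, 0.848, 0.111, 0.562, 0.304 and 0.176 in the water libraries. Its chitin libraries were well apart from the rest, and the difference from water was 2.19 (standard error 0.22). Bra009632 (A10, 16332060 to 16333304, plus strand; named after its values were seen) was at 7.90, 4.92 and 5.35 FPKM in chitin, at 0.802, 1.65 and 0.874 in flg22, and between 0.637 and 1.02 in water (median 0.902). Water was narrow in this gene, and 2 of its 3 flg22 libraries fell inside it.

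Bra019689 (A06, 4976866 to 4981136, plus strand) was listed at 0 in 4 libraries of conditions other than chitin. At 180 min it was at 12.2, 8.47 and 11.7 FPKM in chitin, at 0.777, 2.10 and 5.74 in flg22, and at 1.27, 4.52, 3.63, 1.32, 0 and 1.25 in water. At 30 min it was listed at 0 in 2 flg22 libraries and at 2.91 in the other, at 2.23, 0, 1.08, 6.43 and 3.30 in water and at 0.439, 0.805 and 3.78 in chitin. A value of 0 beside several FPKM in the same condition can be a failed estimate, which was not tested here. For Bra019689 the standard error of the difference between chitin and water, 0.61, was the largest of the set.

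The coefficient of variation of the chitin replicates at 180 min ranged from 1.24% to 70.9%, with a median of 24.8%. The tightest gene was Bra024621 (A09, 25213252 to 25213890, plus strand) at 36.5, 35.8 and 35.6 FPKM. It was at 12.3, 13.9 and 15.4 FPKM in flg22 and between 7.06 and 14.2 in water (median 9.63) at 180 min, but at 30 min it was at 9.99, 2.33 and 1.57 in flg22 and 21.7, 4.74 and 19.5 in chitin, against 5.86 to 9.84 in water. Its difference with flg22 at 30 min, -0.97, was the closest of the set to the limit of 1, and 2 of the 3 flg22 libraries were below all water libraries while the other was above them.

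Bra038048 (A08, 6958351 to 6958761, minus strand) was the member whose chitin and water libraries overlapped at 180 min. It was at 23.7, 38.3 and 15.2 FPKM in chitin, at 9.22, 6.87 and 10.8 in flg22, and at 8.89, 3.16, 2.56, 19.1, 11.7 and 3.66 in the water libraries. The water library 2-s15 lay above the lowest chitin library, and the standard error of the difference from water, 0.57 for a difference of 1.74, was large. This gene had the highest change in water of the set, 1.15, followed by Bra033523 (A01, 11201221 to 11201634, plus strand) at 0.81. Bra033523 was at 7.60, 9.10 and 5.16 FPKM in chitin, at 2.72, 2.47 and 2.59 in flg22, and between 0.432 and 4.85 in water (median 1.80), its lowest chitin library just above the highest water library.

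The remaining members had moderate levels and separated chitin libraries. Bra000713 (A03, 12642001 to 12646929, plus strand), which has the longest locus of the set (4929 bp), was at 27.0, 25.8 and 40.5 FPKM in chitin at 180 min, at 6.60, 14.1 and 13.6 in flg22, and between 6.68 and 15.3 in water (median 8.47). Bra016967 (A04, 17469664 to 17472567, minus strand) was at 17.0, 18.3 and 18.6 FPKM in chitin, at 7.93, 8.49 and 6.58 in flg22, and between 3.27 and 9.07 in water (median 4.81). Chitin lay above all other libraries in both genes, and flg22 overlapped with water.

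Bra029043 (A03, 6033896 to 6036226, plus strand) was at 13.5, 14.1 and 17.4 FPKM in chitin, at 4.53, 4.44 and 5.90 in flg22, and between 2.78 and 6.48 in water (median 4.23). Bra021672 (A04, 13897035 to 13898481, minus strand) was at 24.8, 22.6 and 21.4 FPKM in chitin, at 9.71, 11.5 and 8.26 in flg22, and between 4.63 and 13.1 in water (median 7.11). Water and flg22 overlapped in both, and chitin was above them. Bra000713, Bra016967 and Bra029043 were named after their values were seen. Bra021672 had the smallest difference from water of the set, 1.51 (standard error 0.25), and at 30 min it lay below water with chitin (-0.57) and with flg22 (-0.71).

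**Figure D4:**
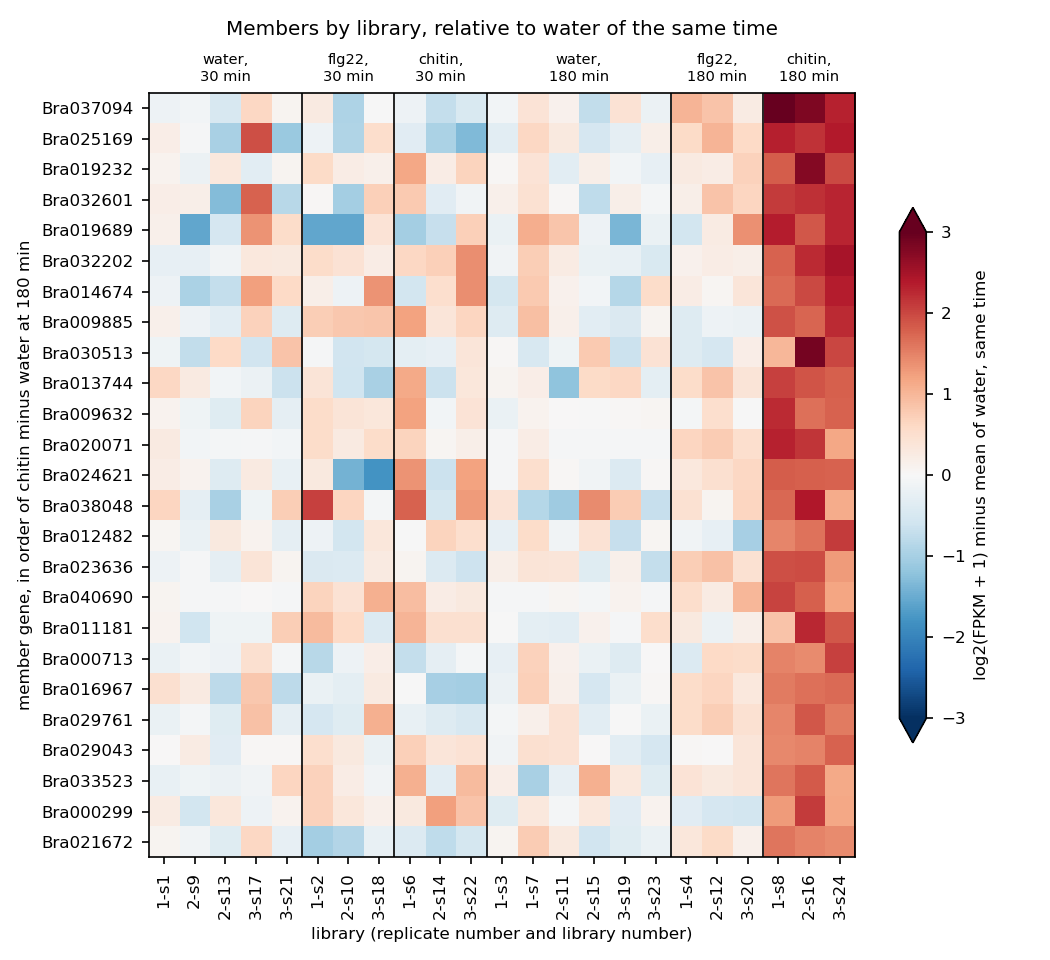
Rows are the 25 members, ordered by the difference between chitin and water at 180 min, and columns are the 23 libraries. Colour gives log2(FPKM + 1) minus the mean of the water libraries of the same time, from blue (lower) to red (higher), and the 3 chitin columns at 180 min are red in every row, whereas single water columns such as 3-s17 at 30 min and 1-s7 at 180 min hold a number of red cells.

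At 30 min the conditions kept every member within 1 of water. The differences with chitin lay between -0.87 and 0.92 (median 0.38, 16 above 0 and 9 below) and those with flg22 between -0.97 and 0.88 (median 0.07, 13 above and 12 below). Over all tested genes the medians at this time were -0.46 and -0.47. Under median-ratio scaling of the libraries these medians became -0.04 and -0.05, those of the members 0.77 and 0.48, and 20 and 21 members then lay above 0. The number of members above 0 at 30 min therefore depended on the scaling, while the 21 members above and 4 below water with flg22 at 180 min were the same in number under both scalings.

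Single water libraries stood apart for these genes. At 180 min library 1-s7 was the highest of the 6 water libraries in 17 of 25 members, against 17.6% of tested genes, and at 30 min library 3-s17 was the highest of the 5 in 14 members, against 39.1% of tested genes. Among the chitin libraries at 30 min, 1-s6 was the highest in 18 members (38.0% of tested genes), and those at 180 min were the highest in 8, 8 and 9 members. Without 1-s7 the conditions were met by 30 genes, without the chitin libraries 1-s8, 2-s16 or 3-s24 at 180 min by 31, 21 and 34. Leaving out each of the 23 libraries in turn kept 8 members every time (Bra009632, Bra009885, Bra012482, Bra013744, Bra019232, Bra020071, Bra030513 and Bra032601), and Bra025169 was kept least often, in 15 of 23 runs. Of the 8 members kept every time, Bra009885, Bra019232 and Bra020071 did not meet the conditions with 0.1 instead of 1 added to FPKM. Bra009885 did not meet them under median-ratio scaling either. The cause of the higher values in single libraries was not tested.

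The values beside each limit were as follows. The lowest difference with chitin inside was 1.51 (Bra021672), and the nearest gene that failed this condition alone was Bra033774 with 1.48. For the limit on flg22 the values were 0.73 (Bra025169) and 0.80 (Bra014692), and for the difference between chitin and flg22 they were 1.02 (Bra023636) and 0.93 (Bra008033). At 30 min they were 0.92 (Bra032202) and 1.01 (Bra029934) for chitin, and -0.97 (Bra024621) and 1.05 (Bra036941, beyond the opposite limit) for flg22. For the change in water they were -1.37 (Bra014674) and -1.81 (Bra014635). Of the 387 genes that met the conditions on chitin at 180 min, on both elicitors at 30 min and on water, 328 were at least 0.75 above water with flg22 and less than 1 apart between chitin and flg22.

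Position, strand and length were not used to choose the members. They lie on all 10 chromosomes, from 1 each on A07 and A10 to 4 each on A03 and A04. No member has another among the 5 nearest genes on either side, and the closest pair, Bra023636 and Bra020071 on A02, is 617243 bp apart with 121 genes between. None overlaps another annotated gene. Of the 50 flanking genes 33 were tested, and 4 of these (12.1%, against 9.15% of tested genes) were called higher with chitin than with water at 180 min: Bra032602 next to Bra032601, Bra019688 and Bra019690 on either side of Bra019689, and Bra021673 next to Bra021672.

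Loci of the members were shorter than those of tested genes, with a median of 1245 bp against 1720 bp. Of the members 7 (28%) have a locus under 500 bp, against 7.34% of tested genes, and 11 (44%) under 1000 bp, against 23.0%. The plus strand holds 15 members (60.0%, against 50.2%). With chitin at 180 min 17 members (68%) had a mean of at least 10 FPKM, against 47.4% of tested genes, and 5 members (20.0%) were listed at 0 in some library, against 5.48%. The members were selected on FPKM, which is divided by length, so length and level are not independent of each other here, and no test was made.

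A list of 10 genes of MAMP perception and response that the study names by identifier was followed in the same fit; the study chose part of it on these libraries, so it is not independent evidence of a direction. Of these 9 were tested, and at 180 min 8 were called higher with chitin than with water (9.15% of all tested genes), 4 with flg22 than with water (6.68%), and 3 with chitin than with flg22 (2.99%), with none lower. The 3 were the homologs of the chitin receptor LYK5 (Bra021861), of CYP79B3 (Bra030246), a cytochrome P450 of indole glucosinolate synthesis, and of S-adenosylmethionine synthase 3 (Bra017219), which makes the methyl donor of the cell. The median difference of the list was 1.81 with chitin, 0.96 with flg22 and 0.87 between chitin and flg22, beside -0.12, 0.01 and -0.10 over all tested genes.

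None of these genes is a member, and their levels show which conditions they missed. LYK5 had a late difference like that of the members, with 9.65 ± 1.29 FPKM in chitin (SD, n = 3), 1.92 ± 0.810 in flg22 (SD, n = 3) and 2.31 ± 1.04 in water (SD, n = 6), and chitin exceeded flg22 by 1.90 (limma, adjusted p = 0.000571 by the Benjamini-Hochberg method over all tested genes). At 30 min, however, it had risen with both elicitors, by 4.53 with chitin (adjusted p = 2.2e-11, limma) and 4.24 with flg22 (adjusted p = 2.9e-11, limma). CYP79B3 exceeded flg22 by 1.98 at 180 min (adjusted p = 0.0023, limma), after being lower than water at 30 min with chitin (-1.504) and flg22 (-1.56).

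S-adenosylmethionine synthase 3 failed through flg22 alone, since it exceeded water by 1.39 with flg22 (adjusted p = 0.0097, limma) beside 2.56 with chitin, and its difference between chitin and flg22 of 1.18 had an adjusted p of 0.11 in limma. UGT74B1 (Bra024634), a glycosyltransferase of glucosinolate synthesis, exceeded water by 2.07 with chitin and 1.20 with flg22 (adjusted p = 0.0079, limma). The study, in contrast, reports UGT74B1 and S-adenosylmethionine synthase 3 as raised only by chitin at 180 min, also by quantitative RT-PCR of other samples. For its RNA-Seq calls it used DESeq2 and separate water controls, unlike the fit here. The LysM receptor CERK1 (Bra031293) was higher than water at 30 min with both elicitors, by 1.83 and 2.00, and at 180 min by 1.49 with chitin and 0.96 with flg22 (adjusted p = 0.0044, limma). Its difference between chitin and flg22 was 0.52 (adjusted p = 0.25, limma). The LYM2 homologs Bra009660 and Bra002021, LysM proteins without a kinase domain, exceeded water at 180 min by 2.12 and 1.26 with chitin. With flg22 their differences from water were 1.45 (adjusted p = 2.2e-05, limma) and 0.51 (adjusted p = 0.14, limma), and neither was called between chitin and flg22.

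NHL10 (Bra017272), an early marker of immunity, exceeded water by 5.62 with chitin and 6.86 with flg22 at 30 min. Of the FLS2 homologs, Bra017563 differed from water by -0.23 with chitin and 0.02 with flg22 at 180 min, neither passing the test, and Bra022032 was listed at 0 in every library. The 2 genes set aside by name, Bra000310 (an endochitinase, which cleaves chitin) and Bra017872 (the APK2 homolog, an APS kinase), met all conditions, with differences from water of 2.36 and 2.48 with chitin and 0.61 and 0.54 with flg22.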

How the data were processed

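RNA of leaf discs was made into stranded mRNA libraries. The authors used Trimmomatic 0.36 for trimming, HISAT2 for mapping (genome: B. rapa chromosome v1.5) and StringTie 2.0 for quantification. Per library they deposited FPKM (used for all results), TPM (scaled to a fixed total) and coverage, a signal per base whose ratio to FPKM gave the aligned bases. DESeq2 and the authors' read counts were not used, and 0 other per-sample columns were present.

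Libraries were grouped by their labels. The study had separate water controls for chitin and for flg22. The labels do not say which water library is the control of which elicitor. The study lists mapped reads for each control, and comparing these with the aligned bases per library would allow a match. That match was not made, and all water libraries of a time served as control. Results with a separate control for each elicitor were not computed. Because FPKM depends on the library total, a rise of abundant transcripts lowers the other values. The 24384 genes that reached 1 FPKM in 3 or more of the 23 libraries were fitted with limma 3.58.1 (R 4.3.3) on log2(FPKM + 1), pseudocount 1, with a mean-variance trend and 1 coefficient for each of 6 conditions. Differences on this scale understate those of genes with low FPKM. Standard errors come from this fit, which was tested on simulated data. The conditions used every condition mean, so no test of members was made. The spread is that between sets of discs.

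The members and lists were chosen with earlier results of these data known. Named genes are the 10 members with the largest difference between chitin and water, the 8 with the largest between chitin and flg22, the 5 with the highest level, the 3 highest and 3 lowest changes in water, genes beside each limit, the 2 genes set aside and the listed genes, 18 of the 25 members in all. The name table pairs 1 of the 41020 identifiers with a symbol and none of the members, so gene names are those of the study.

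Deviations of same-numbered replicates had correlations of 0.31 to 0.47 for chitin and water at 30 min. For flg22 and water at 30 min they were 0.24 to 0.43. At 180 min they were 0.15 to 0.51 for chitin and water, -0.05 to 0.18 for flg22 and water, and -0.11 to 0.18 for chitin and flg22. The ranges at 180 min overlap. All correlations at 30 min, and those of chitin and water at 180 min, were positive. The main fit had no term for replicate and treated water libraries of the same replicate number as independent. Alternatives were a pseudocount of 0.1, TPM, median-ratio scaling, no filter, adjusted p, only the libraries at 180 min, a replicate block, averaged or single water libraries, shifted limits and each library left out. Libraries shared up to 0.00344% of their values, so none was deposited under 2 labels.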

Additional observations from a re-analysis of the deposited data

Results flagged for a closer look

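In 8 of 50 groups of 5 or 6 water libraries, 1 library stood apart from the others. The rule would mark about 1 in 20 groups of independent, normally distributed values. These groups reuse the same water libraries and FPKM was not transformed, so the number cannot be compared with chance. Library 3-s17 at 30 min was high for 4 members: 87.9 FPKM for Bra025169 (the others 9.69 to 25.6), 32.1 for Bra029761 (13.1 to 16.4), 29.5 for Bra032601 (2.68 to 9.29) and 19.6 for Bra000713 (11.9 to 13.0). Library 1-s7 at 180 min was high for Bra009885 at 3.94 FPKM (0.968 to 1.94) and for Bra020071 at 0.205, with the other 5 listed at 0. Library 1-s1 at 30 min was high for Bra020071 at 0.275 FPKM (0 to 0.0350), and 3-s21 at 30 min for Bra033523 at 1.496 (0.376 to 0.496).

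Bra021672 was the member whose chitin libraries all lay above water at 180 min and all below it at 30 min, with differences of 1.51 and -0.57 on the log2(FPKM + 1) scale. Over all tested genes the median difference with chitin at 30 min was -0.46, and -0.04 under median-ratio scaling. On the scale used, 21.2% of tested genes were above water with chitin at 30 min. Whether the scaling contributes to the lower value of Bra021672 at 30 min was not tested. The difference between the 2 times was not tested, and the choice of members used both values.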

How the results depend on the processing

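The members were chosen on these same libraries for large differences at 180 min, which made a change of direction unlikely. Under every alternative run, all differences of single members between chitin and water and between chitin and flg22 at 180 min kept their direction. Of these values 58 moved by more than the spread between replicates and 692 did not for chitin against water, and 31 moved and 669 did not for chitin against flg22. Which genes met the conditions depended on the settings. With a pseudocount of 0.1, 57 genes met them, 14 of them among the 25 members, and 2 of the 25 members, instead of 0, were then called higher with flg22 than with water. With limits at 180 min looser by 0.25, 91 genes met them, and with limits tighter by 0.25, 8 did. TPM gave 22 genes (21 shared) and median-ratio scaling 30 (20 shared). With the replicate block 25 genes met the conditions (24 shared, without Bra024621), and the numbers of members called stayed at 25, 0 and 24. Single water libraries per replicate number, in 32 choices, gave 25 to 33 genes, 13 to 21 of them shared, with 7 members in every choice. With an adjusted p, 17 instead of 24 members were called higher with chitin than with flg22.

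With 1 library left out at a time, 21 to 34 genes met the conditions. The members' median difference from water was 1.76 to 1.91 with chitin and 0.26 to 0.48 with flg22, and that between chitin and flg22 was 1.38 to 1.59. Genes called higher numbered 2080 to 2385 for chitin against water, with 25 members each time, 1477 to 1750 for flg22 against water, with 0 members, and 599 to 888 for chitin against flg22, with 22 to 25 members. At levels under 1 FPKM, as in Bra020071 and Bra040690, few reads stand behind each value.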
